A study of Mus musculus with 5 samples.

Results

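The 48 genes described here encode plasma proteins that the liver secretes: clotting and fibrinolysis factors, acute-phase proteins, and carriers with the proteins of the insulin-like growth factor (IGF) axis. They were taken by gene symbol from a count table of 46983 genes, and each symbol matched 1 row. They were read in RNA-seq libraries of mouse Kupffer cells, the resident macrophages of the liver sinusoids. The knockout group, Id3-/-, had 2 libraries (replicates 2 and 3), and the heterozygous group, Id3+/-, had 3 (replicates 1, 2 and 3). Both groups carry a mutant Id3 allele, so the comparison asks what losing the remaining copy of Id3 changes and has no wild-type reference. The labels name the cell type, the tissue and the genotype. They do not give strain, sex, a stated age, the part of Id3 removed, the cells in which it was removed, whether animals were pooled, or how the cells were isolated beyond mechanical disruption of the tissue. The column names of all 5 samples also carry the tag 3w, which is not explained.

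Hepatocytes make most circulating proteins. Their signal peptides route them through the endoplasmic reticulum and Golgi into the blood, and liver-enriched factors such as HNF1, HNF4 and C/EBP proteins drive their genes. In the clotting cascade, zymogens activate each other in turn until thrombin cuts fibrinogen to fibrin, and plasmin later dissolves the clot. In the acute-phase response, interleukin-6 and interleukin-1 raise some plasma proteins and lower others, albumin and transthyretin among them. Macrophages are not the main source of most of these proteins, although they are known to make IGF-I and fibronectin.

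All 5 libraries were deep, with 77322672 and 75770751 counts assigned to genes in the knockout and 80944135, 77749614 and 74823374 in the heterozygous libraries, and the SMART-seq V4 kit used for them amplifies cDNA. Id3, the deleted gene, had 1.01 and 1.42 CPM (counts scaled for library depth) in the knockout libraries, against 229, 221 and 256 CPM in the heterozygous ones. Each library thus matched its label. Values of single genes are TMM-normalised CPM, and sums over lists are CPM on library size, both given for knockout replicates 2 and 3 and for heterozygous replicates 1, 2 and 3 in that order. Fold changes are knockout minus heterozygous on the log2 scale ± SE (n = 2 and 3), from edgeR's quasi-likelihood test. The SE was derived as the absolute fold change over the square root of the test's F statistic, whose variance draws on other genes too. The Kupffer cell markers were high in every library: 15 genes, among them Clec4f, Vsig4 and Timd4, summed to 82058 to 86378 CPM in the knockout and 74420 to 77134 CPM in the heterozygous libraries. Of the 15, 3 rose (C1qb, C1qc and Marco), 0 fell and 12 did not pass. Over all 16436 genes tested, 16.4% passed at an adjusted p under 0.05, 10.0% lower and 6.41% higher in the knockout. Nothing in the labels shows that the samples came from separate animals, and the p-values therefore cover only how far these samples scatter, a scatter that may be technical.

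Transcripts for liver-made plasma proteins were present in all libraries and scarcer in the knockout ones. The 48 genes together held 0.660% and 1.43% of the counts in the knockout libraries, against 3.32%, 3.65% and 3.02% in the heterozygous libraries. All 48 passed the filter on low counts and were tested: 35 passed as lower, 0 as higher, and 13 did not pass, with a median log2 fold change of -1.72. Over all genes tested 10.0% passed as lower, and the median was -0.02. Leaving out knockout replicate 2 gave 31 calls (30 lower, Ttr higher), and leaving out knockout replicate 3 gave 46. Fits that dropped a heterozygous library gave 13 calls for replicate 1, 7 for replicate 2 and 27 for replicate 3. Both knockout libraries lay below every heterozygous library for 43 of the 48, an arrangement that 26.9% of all genes tested showed. In bulk RNA, fewer cells of a type and less RNA per cell cannot be told apart.

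Transcripts of enzymes inside hepatocytes were scarcer in the same libraries. A list of 25 such enzymes summed to 1332 and 2036 CPM in the knockout libraries, against 3857, 3837 and 3583 CPM in the heterozygous libraries, and none of the 25 was at 0 in any library. Of the 25, 0 rose, 19 fell and 6 did not pass, with a median log2 fold change of -1.24. Over all genes tested, 6.41% passed as higher and 10.0% as lower. Mat1a, which makes the methyl donor S-adenosylmethionine, fell by 1.18, Pck1, the gluconeogenic enzyme, by 1.90, and Bhmt, which remethylates homocysteine, by 2.03 on the log2 scale. Fabp1, the liver fatty acid binding protein, stood at 101 and 257 CPM in the knockout against 226, 185 and 195 CPM in the heterozygous libraries and did not pass (edgeR adjusted p = 0.798). In the knockout libraries the 48 genes held 4.95 and 7.02 counts per enzyme count, against 8.60, 9.50 and 8.44 in the heterozygous libraries. The groups did not overlap on this ratio, which was not tested and depends on the enzymes listed. In both knockout libraries 22 of the 25 enzymes lay below every heterozygous library, an arrangement that 26.9% of all genes tested showed. The 1 that lay above was Khk, at 143 and 147 CPM against 115, 112 and 141 CPM, which did not pass. With the mean enzyme level as a covariate, 0 genes passed in edgeR, members included (unadjusted p under 0.05 for 1703 of all genes and for 13 of the 48). Even Id3, the deleted gene, did not pass in this fit (-6.74, edgeR adjusted p = 0.182). The enzyme sum does not overlap between the genotypes, so the fit cannot separate covariate from genotype, and nothing is concluded from it.

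**Figure D1:**
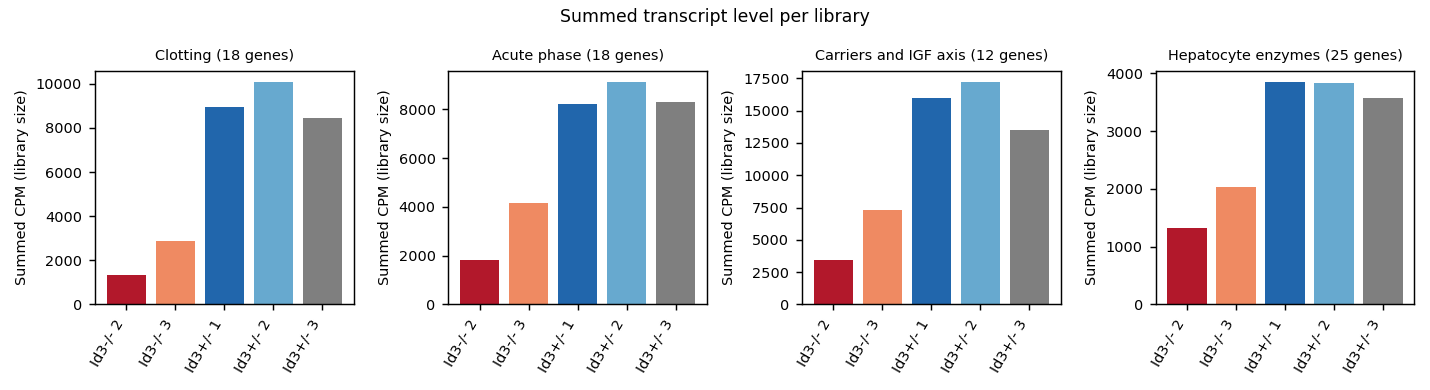
Summed CPM (on library size) of the 3 plasma protein classes and of 25 hepatocyte enzymes, 1 bar per library, knockout libraries (red and orange) left of heterozygous ones (blue and grey). Both knockout bars are below all heterozygous bars in each panel, and knockout replicate 2 is the lowest, at 1331 CPM for the clotting class and 1332 CPM for the enzymes.

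Markers of other cell types were summed in the same way. For the counts that follow, the shares over all genes tested were 6.41% passing as higher and 10.0% as lower. Neutrophil markers, 12 genes, summed to 337 and 138 CPM in the knockout and 73.4 to 81.4 CPM in the heterozygous libraries, with 6 rising, 0 falling and 3 not tested. Among the granule genes of this list, Ngp was at 78.3 and 0.465 CPM in the knockout against 0, 0.329 and 0 CPM in the heterozygous libraries, and Ltf at 40.5 and 0 CPM in the knockout against 0, 0.279 and 0.604 CPM in the heterozygous libraries, both high in knockout replicate 2 alone. S100a9 was high in both knockout libraries, at 32.8 and 12.8 CPM against 0.0365, 0.165 and 0.439 CPM in the heterozygous ones. Mpo and Elane, which are made in neutrophil precursors, had at most 0.220 CPM in any library. Monocyte markers, 10 genes, summed to 1189 and 1254 CPM in the knockout against 883, 924 and 1049 CPM in the heterozygous libraries, with 3 rising and 1 falling. The gene that fell is F10, which is also one of the clotting genes. Of those that rose, Ly6c2 was at 34.7 and 9.76 CPM in the knockout against 1.08, 1.08 and 0.412 CPM in the heterozygous libraries. Lymphocyte markers, 11 genes, summed to 466 and 257 CPM in the knockout against 271, 269 and 176 CPM in the heterozygous libraries, with 1 rising and 0 falling, and knockout replicate 2 was the highest. Stellate and stromal markers, 12 genes, summed to 522 and 463 CPM in the knockout against 448, 427 and 465 CPM in the heterozygous libraries, with 1 rising and 4 falling. Dendritic cell markers, 7 genes, summed to at most 21.7 CPM in any library, and none passed. Sinusoidal endothelial markers, 14 genes, summed to 1233 and 1252 CPM in the knockout against 1625, 1439 and 1311 CPM in the heterozygous libraries, with 5 falling and 0 rising. Platelet and megakaryocyte markers, 10 genes whose cells also store clotting proteins, summed to 158 and 154 CPM in the knockout against 120, 112 and 99.8 CPM in the heterozygous libraries. Most of this sum was Pf4. Of the 10, 1 rose, 1 fell and 8 did not pass, and the median log2 fold change was -0.34, below 0 although the sum was higher. Bile duct markers stayed under 47 CPM in sum in every library, with the highest value, 46.6 CPM, in knockout replicate 3. The part of these other cell types in the results below was not tested. Reads aligned more than once were 32.3% and 34.1% of the aligned total in the knockout and 38.3% to 41.0% in the heterozygous libraries.

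Fibrinogen fell most among the clotting proteins. Its chains alpha, beta and gamma come from the genes Fga, Fgb and Fgg, which are neighbours on chromosome 3. Fga stood at 127 and 272 CPM in the knockout libraries, against 1515, 1718 and 1409.8 CPM in the heterozygous libraries. Fgb had 118 and 268 CPM in the knockout against 1188, 1401 and 1212 CPM in the heterozygous libraries, and Fgg 113 and 267 CPM in the knockout against 1281, 1466 and 1207 CPM in the heterozygous libraries. The knockout libraries thus lay far under the heterozygous ones for each chain, replicate 2 the lower of the pair. The log2 fold changes were -2.96 ± 0.34, -2.71 ± 0.35 and -2.80 ± 0.37 (edgeR adjusted p = 0.00843, 0.0106 and 0.011). These were 3 of the 7 members that passed in every fit that left out 1 library. In CPM not divided by transcript length, Fga had 1.07 and 1.01 CPM per CPM of Fgb in the knockout, against 1.27, 1.23 and 1.16 in the heterozygous libraries, and these ranges did not overlap. Ratios of gene pairs here and below were not tested. Some other pairs overlapped, such as Lrg1 per Hp, at 0.197 and 0.110 against 0.197, 0.157 and 0.194. Levels of single genes lay apart for 26.9% (knockout below) and 24.6% (knockout above) of all genes tested.

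The 300 bases around the starts of Fga, Fgb and Fgg (250 before, 50 after) are shown. With them are those of Alb, Ahsg and Hpx, which with Fga are the members of highest summed counts that the promoter table holds, and of Igfbp4, a member that hardly moved. Sequences are from RefSeq on GRCm38.p6, on the gene's strand. Capitals mark the HNF1 half-site GTTAAT or its complement ATTAAC, and the TATA box TATAAA or TTTATA.
Fga (chr3:83025903-83026202, plus strand): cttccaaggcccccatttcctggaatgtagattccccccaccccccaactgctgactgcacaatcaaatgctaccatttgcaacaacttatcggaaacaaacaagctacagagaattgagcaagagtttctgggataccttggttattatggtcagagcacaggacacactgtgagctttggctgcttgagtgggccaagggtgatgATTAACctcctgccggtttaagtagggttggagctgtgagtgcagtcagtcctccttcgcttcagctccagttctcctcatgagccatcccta
Fgb (chr3:83049814-83050113, minus strand): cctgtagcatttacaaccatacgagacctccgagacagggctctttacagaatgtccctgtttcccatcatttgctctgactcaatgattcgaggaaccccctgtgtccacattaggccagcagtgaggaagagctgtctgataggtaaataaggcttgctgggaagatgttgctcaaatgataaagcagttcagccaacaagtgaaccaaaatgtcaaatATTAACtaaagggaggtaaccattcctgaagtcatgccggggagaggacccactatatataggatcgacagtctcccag
Fgg (chr3:83007474-83007773, plus strand): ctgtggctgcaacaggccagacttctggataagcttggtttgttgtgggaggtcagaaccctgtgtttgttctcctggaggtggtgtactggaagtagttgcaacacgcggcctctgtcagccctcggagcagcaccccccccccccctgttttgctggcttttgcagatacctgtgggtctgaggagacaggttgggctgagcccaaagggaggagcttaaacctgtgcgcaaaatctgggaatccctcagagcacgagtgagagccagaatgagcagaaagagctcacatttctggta
Alb (chr5:90460620-90460919, plus strand): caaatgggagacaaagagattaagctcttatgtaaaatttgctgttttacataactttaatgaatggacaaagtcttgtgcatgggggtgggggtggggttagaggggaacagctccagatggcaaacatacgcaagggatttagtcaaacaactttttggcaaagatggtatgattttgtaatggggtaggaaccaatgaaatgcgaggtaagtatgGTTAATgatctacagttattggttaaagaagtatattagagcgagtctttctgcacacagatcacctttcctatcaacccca
Ahsg (chr16:22891765-22892064, plus strand): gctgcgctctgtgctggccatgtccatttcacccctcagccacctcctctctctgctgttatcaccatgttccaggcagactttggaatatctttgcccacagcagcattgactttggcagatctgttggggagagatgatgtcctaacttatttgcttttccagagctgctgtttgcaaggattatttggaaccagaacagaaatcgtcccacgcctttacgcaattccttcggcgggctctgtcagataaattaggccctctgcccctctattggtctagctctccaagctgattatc
Hpx (chr7:105600067-105600366, minus strand): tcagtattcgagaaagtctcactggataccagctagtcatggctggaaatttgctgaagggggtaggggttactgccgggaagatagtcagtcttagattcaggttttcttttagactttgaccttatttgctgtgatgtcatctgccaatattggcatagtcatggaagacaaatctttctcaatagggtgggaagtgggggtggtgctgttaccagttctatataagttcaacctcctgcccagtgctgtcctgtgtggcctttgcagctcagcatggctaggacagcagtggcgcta
Igfbp4 (chr11:99040994-99041293, plus strand): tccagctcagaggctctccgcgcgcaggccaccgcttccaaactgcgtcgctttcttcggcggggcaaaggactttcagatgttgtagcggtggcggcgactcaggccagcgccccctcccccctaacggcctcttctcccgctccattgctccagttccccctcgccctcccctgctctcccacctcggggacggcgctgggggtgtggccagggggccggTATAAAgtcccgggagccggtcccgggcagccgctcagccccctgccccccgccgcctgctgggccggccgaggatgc

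Of the promoters shown, Alb had GTTAAT from base -32, Fga ATTAAC from base -43 and Fgb ATTAAC from base -29 relative to the start. Igfbp4 had TATAAA from base -28, and neither pattern was found in the windows of Ahsg, Hpx and Fgg. The table held 46 promoters for 40 of the 48 members, and all patterns were searched on both strands. GTTAAT was in 21.7% of these, against 7.1% of all 32851 promoters of the same length. TATAAA was in 23.9% against 13.6%, the C/EBP pattern TTNNGCAA in 32.6% against 10.8%, and the STAT pattern TTCNNNGAA in 17.4% against 8.3%. CACCTG, an E-box that E proteins bind when Id proteins do not hold them, was in 19.6% of member promoters against 20.2% of all. The HNF4 pattern CAAAGTCCA was in 0 of the 46 and in 0.5% of all. A match is only a run of letters, and no binding was measured.

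The proteases and cofactors of the cascade fell less than fibrinogen in fitted value. F2, prothrombin, had 223 and 396 CPM in the knockout, against 986, 1093 and 1016 CPM in the heterozygous libraries, the log2 fold change being -1.74 ± 0.24 (edgeR adjusted p = 0.0122). The summed fibrinogen chains held 1.60 and 2.04 CPM per CPM of F2 in the knockout, against 4.04, 4.20 and 3.77 in the heterozygous libraries. These ratios within a library do not depend on scaling, and the groups did not overlap. Among the vitamin K-dependent zymogens, F9, whose loss causes haemophilia B, was at 0.836 and 1.28 CPM in the knockout against 4.44, 5.70 and 3.01 CPM in the heterozygous libraries and changed by -2.05. F10, which makes thrombin once active, was at 34.9 and 76.9 CPM in the knockout against 156, 174 and 144 CPM in the heterozygous libraries and changed by -1.50. Proc, the anticoagulant protein C, was at 34.3 and 71.2 CPM in the knockout against 169.9, 183 and 168 CPM in the heterozygous libraries and changed by -1.72. Each of these passed, with the knockout libraries below all heterozygous ones. F7, which starts clotting on tissue factor, was at 7.85 and 19.5 CPM in the knockout against 34.9, 37.8 and 32.0 CPM in the heterozygous libraries and missed the threshold (log2 fold change -1.35 ± 0.37, edgeR adjusted p = 0.056). F5, the cofactor of factor Xa, was at 2.53 and 8.13 CPM in the knockout against 13.8, 14.0 and 14.9 CPM in the heterozygous libraries and also did not pass (edgeR adjusted p = 0.0881). For F7 and F5 the knockout libraries lay below all heterozygous ones, but replicate 3 stood well above replicate 2.

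The contact and fibrinolysis proteins fell with prothrombin. F12, the contact factor, was at 36.2 and 77.1 CPM in the knockout against 168, 172 and 159 CPM in the heterozygous libraries and changed by -1.55, and F11, its target, was at 0.570 and 1.63 CPM in the knockout against 5.36, 6.78 and 4.53 CPM in the heterozygous libraries and changed by -2.33. Kng1, the kininogen that carries F11, was at 97.4 and 209 CPM in the knockout against 539, 594 and 529.9 CPM in the heterozygous libraries and changed by -1.86. Kng1 shares 18% of its 50-base words with Kng2, so its single value is uncertain. Plg, the precursor of plasmin, was at 189 and 353 CPM in the knockout against 973, 1069 and 933 CPM in the heterozygous libraries (-1.87 ± 0.27, edgeR adjusted p = 0.0123). Hrg, the histidine-rich glycoprotein that binds plasminogen, was at 22.4 and 49.0 CPM in the knockout against 92.3, 101 and 87.8 CPM in the heterozygous libraries and changed by -1.39. F13b, the carrier subunit of the fibrin-crosslinking factor XIII, was at 2.83 and 6.43 CPM in the knockout against 19.0, 24.2 and 17.9 CPM in the heterozygous libraries and changed by -2.14. Vtn, vitronectin, which stabilises the plasminogen activator inhibitor, was at 206 and 394 CPM in the knockout against 1002, 1077 and 1019.9 CPM in the heterozygous libraries and changed by -1.78. In each of the proteins of contact and fibrinolysis named here the groups did not overlap and knockout replicate 2 was the lowest library. Apoh, a phospholipid-binding glycoprotein, was at 86.1 and 225 CPM in the knockout against 339, 389.7 and 368 CPM in the heterozygous libraries and did not pass (edgeR adjusted p = 0.0742).

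Fn1, fibronectin, which is laid into clots and matrix, had 63.4 and 111 CPM in the knockout libraries, against 349, 419 and 358 CPM in the heterozygous libraries. No library of one genotype reached the range of the other. The log2 fold change was -2.10 ± 0.25 (edgeR adjusted p = 0.00942), and Fn1 passed in each fit that left out 1 library. In all, 15 of the 18 clotting genes fell, 0 rose and 3 did not pass, with a median log2 fold change of -1.82. Without heterozygous replicate 1 the 15 became 7, and without heterozygous replicate 2 they became 4, while the median over all 48 members was -1.73 and -1.70 in these fits. Summed, the class held 1331 and 2866 CPM in the knockout, against 8969, 10094 and 8452 CPM in the heterozygous libraries. Per enzyme count this was 0.999 and 1.41 in the knockout, against 2.33, 2.63 and 2.36 in the heterozygous libraries.

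**Figure D2:**
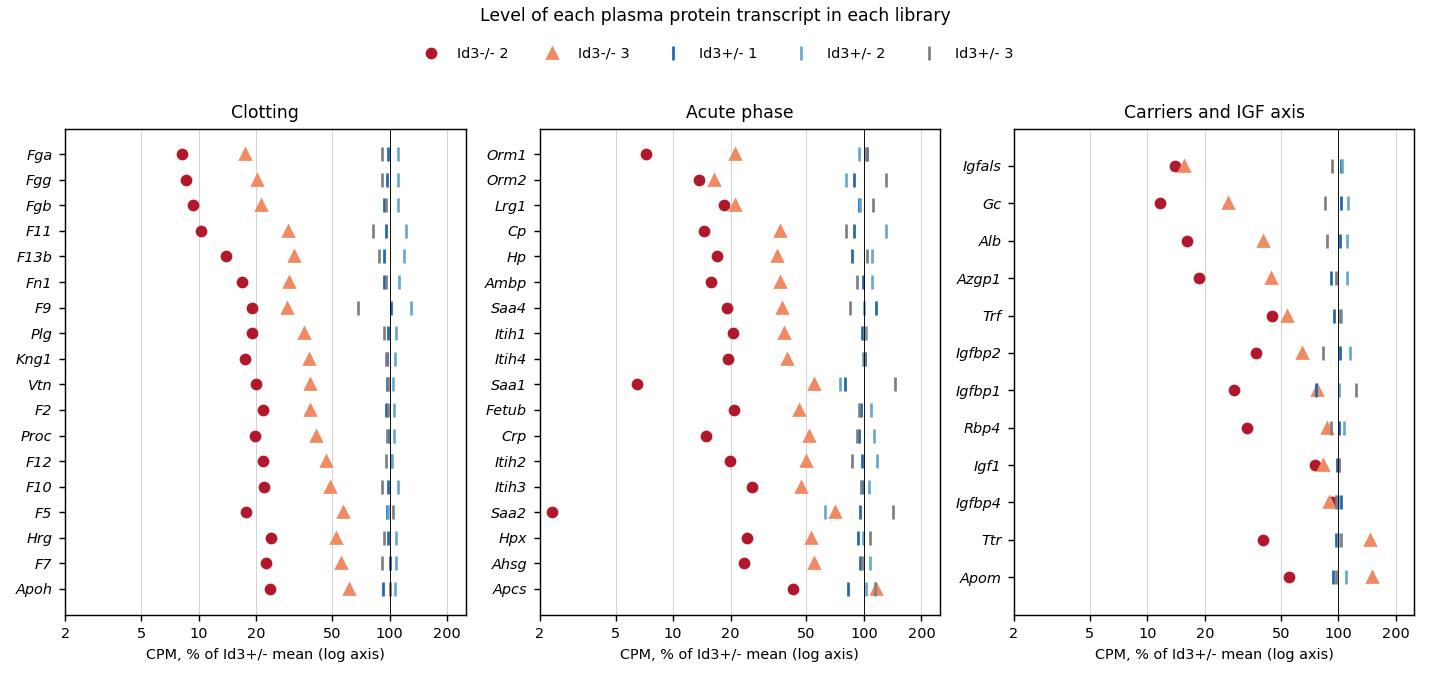
CPM of each gene in each library as a percentage of its heterozygous mean (log axis), knockout libraries as circles and triangles, heterozygous libraries as ticks. Knockout replicate 2 lies under the heterozygous libraries for all 48 genes, and replicate 3 is above them for 3: Ttr, Apom and Apcs.

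Among the acute-phase proteins, 14 of 18 fell, 0 rose and 4 did not pass, with a median log2 fold change of -1.74. The class summed to 1808 and 4142 CPM in the knockout libraries, against 8227, 9130 and 8292 CPM in the heterozygous libraries. Per enzyme count this was 1.36 and 2.04 in the knockout, against 2.13, 2.38 and 2.31 in the heterozygous libraries. Knockout replicate 3 was thus near the heterozygous range on this ratio. Without heterozygous replicate 1 the 14 became 3, and without heterozygous replicate 2 they became 1 (Lrg1). Ahsg, fetuin-A, which keeps calcium phosphate from precipitating, was the most abundant per length, at 884 CPM per kb of transcript in the knockout and 2267 in the heterozygous libraries. In CPM it stood at 791 and 1832 in the knockout against 3189.7, 3612 and 3289.5 in the heterozygous libraries (log2 fold change -1.36 ± 0.33, edgeR adjusted p = 0.0422). With scaling on library size alone, Ahsg no longer passed, nor did it when any 1 of the heterozygous libraries was left out.

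The scavengers of haemoglobin and haem, which red cell breakdown releases, both fell. Hp, haptoglobin, was at 144 and 298 CPM in the knockout, against 734, 933 and 882 CPM in the heterozygous libraries (log2 fold change -1.94 ± 0.31, edgeR adjusted p = 0.0164). Hpx, hemopexin, was at 327 and 709 CPM in the knockout against 1250.1, 1317 and 1445 CPM in the heterozygous libraries (-1.37 ± 0.31, edgeR adjusted p = 0.0352). The groups did not overlap for either. There were 2.27 and 2.38 CPM of Hpx per CPM of Hp in the knockout, against 1.70, 1.41 and 1.64 in the heterozygous libraries. Cp, ceruloplasmin, the copper-carrying ferroxidase, was at 9.96 and 24.9 CPM in the knockout against 60.8, 88.8 and 55.1 CPM in the heterozygous libraries, changed by -1.97 and passed, though not with offsets for transcript length and GC content (edgeR adjusted p = 0.0585). The call for Cp was also lost without heterozygous replicate 1 or 2.

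Orm1, an alpha-1-acid glycoprotein that binds drugs, had the lowest fold change of the class. It was at 4.38 and 12.9 CPM in the knockout, against 63.2, 57.1 and 62.4 CPM in the heterozygous libraries (-2.82 ± 0.45, edgeR adjusted p = 0.0157). Its neighbour Orm2 was at 0.239 and 0.284 CPM in the knockout against 1.53, 1.41 and 2.28 CPM in the heterozygous libraries, from 18 and 22 counts in the knockout and 126, 111 and 166 in the heterozygous libraries. The fitted change of Orm2 was -2.73. Orm1 and Orm2 share 20.4% and 22.7% of their 50-base words, and reads with several alignments were not assigned to genes, so both counts are partial.

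The serum amyloid A genes, apolipoproteins of high-density lipoprotein, were low and uneven. Saa1 had 19 and 165 counts in the knockout, or 0.252 and 2.13 CPM, against 3.10, 2.91 and 5.73 CPM in the heterozygous libraries. Saa2 had 2 and 62 counts, or 0.0265 and 0.801 CPM, in the knockout, against 1.08, 0.710 and 1.62 CPM in the heterozygous libraries. The knockout libraries differed 8.46-fold for Saa1 and 30.2-fold for Saa2, and for Saa2 replicate 3 lay inside the heterozygous range. Neither passed (edgeR adjusted p = 0.218 and 0.437). Saa4, the constitutive member, was at 2.08 and 4.02 CPM in the knockout against 12.5, 10.8 and 9.12 CPM in the heterozygous libraries and fell (-1.82 ± 0.34, edgeR adjusted p = 0.0215). Saa1 and Saa2 share 14.8% and 9.12% of their 50-base words.

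The pentraxins Crp and Apcs, neighbours on chromosome 1, differed in value. Apcs, serum amyloid P and the main acute-phase pentraxin of mice, was at 21.1 and 57.5 CPM in the knockout, against 41.1, 51.4 and 57.0 CPM in the heterozygous libraries. Knockout replicate 3 was the highest of the 5 and replicate 2 the lowest, and Apcs did not pass (-0.34 ± 0.40, edgeR adjusted p = 0.614). Crp, C-reactive protein, was at 5.54 and 19.1 CPM in the knockout against 34.9, 42.1 and 34.2 CPM in the heterozygous libraries and did not pass either (-1.59 ± 0.49, edgeR adjusted p = 0.0753). There were 3.80 and 3.00 CPM of Apcs per CPM of Crp in the knockout, against 1.18, 1.22 and 1.67 in the heterozygous libraries.

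Lrg1, a glycoprotein that hepatocytes release in inflammation, had one of the most even changes. It was at 28.3 and 32.7 CPM in the knockout, against 145, 147 and 171 CPM in the heterozygous libraries. The libraries of each genotype lay close together, the log2 fold change being -2.34 ± 0.13 (edgeR adjusted p = 0.00196), and Lrg1 passed in all 5 fits that left out 1 library.

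The inter-alpha-trypsin inhibitor family, whose heavy chains are bound to hyaluronan, had 5 members here. Of the heavy chains, Itih1 was at 77.6 and 143 CPM in the knockout against 368, 386 and 379.6 CPM in the heterozygous libraries and changed by -1.77, and Itih2 was at 34.4 and 85.8 CPM in the knockout against 168, 202 and 149 CPM in the heterozygous libraries and changed by -1.52. Itih3 was at 118 and 213 CPM in the knockout against 442, 483 and 436 CPM in the heterozygous libraries and changed by -1.45, and Itih4, a relative without the hyaluronan link, was at 163 and 329.9 CPM in the knockout against 845, 832 and 839.8 CPM in the heterozygous libraries and changed by -1.77. Ambp, which encodes the light chain bikunin, was at 96.9 and 225 CPM in the knockout against 609, 674 and 563 CPM in the heterozygous libraries and changed by -1.94. All 5 passed and kept the groups apart, Itih2 with an edgeR adjusted p of 0.0439 that went above 0.05 with scaling on library size and with length and GC offsets. Without heterozygous replicate 2 none of the 5 passed, and Itih2 also did not pass without heterozygous replicate 1 or 3. Fetub, a protease inhibitor related to fetuin-A, was at 29.9 and 65.3 CPM in the knockout against 139, 155 and 135 CPM in the heterozygous libraries, changed by -1.59 and passed.

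The carriers and the IGF axis had the widest range of fitted changes, -2.77 to 0.04 on the log2 scale. Of 12 genes, 6 fell, 0 rose and 6 did not pass, with a median log2 fold change of -0.95. The class summed to 3458 and 7285 CPM in the knockout libraries, against 15963, 17232 and 13486 CPM in the heterozygous libraries. Per enzyme count this was 2.595 and 3.58 in the knockout, against 4.14, 4.49 and 3.76 in the heterozygous libraries. Knockout replicate 3 was near the heterozygous range here too. The count that fell was 3 without heterozygous replicate 1, 2 without heterozygous replicate 2 and 10 without knockout replicate 3. Alb, albumin, the main protein of plasma and a carrier of fatty acids and hormones, was the most abundant member per length. It had 1477 CPM per kb in the knockout and 5234 in the heterozygous libraries. In CPM it was at 1718 and 4292 in the knockout against 10906, 11794 and 9238 in the heterozygous libraries, with both knockout libraries under the heterozygous range and replicate 3 at 2.50 times replicate 2 (log2 fold change -1.82 ± 0.38, edgeR adjusted p = 0.0279). Albumin made up 25.4% and 30.7% of the counts of the 48 genes in the knockout, against 33.4%, 32.8% and 29.7% in the heterozygous libraries.

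Gc, the vitamin D-binding protein, fell to 173 and 392 CPM in the knockout against 1517, 1665 and 1256 CPM in the heterozygous libraries (-2.39 ± 0.36, edgeR adjusted p = 0.0144). Per CPM of Alb, Gc stood at 0.101 and 0.0914 in the knockout, against 0.139, 0.141 and 0.136 in the heterozygous libraries. Azgp1, a zinc-binding glycoprotein, was at 29.0 and 68.8 CPM in the knockout against 143, 173 and 151 CPM in the heterozygous libraries and fell (-1.67 ± 0.35). Trf, transferrin, which carries iron to cells, was at 726 and 866 CPM in the knockout, against 1537, 1661 and 1637 CPM in the heterozygous libraries. Its knockout libraries were within 1.19-fold of each other, the log2 fold change being -1.02 ± 0.10 (edgeR adjusted p = 0.00705), and Trf passed in each fit without 1 library. In GENCODE M21 the gene overlaps Gm20425, with which it shares 79.8% of its 50-base words and which held 1 count in all 5 libraries, so Trf may be counted in part.

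The thyroid hormone and retinol carriers did not pass. Ttr, transthyretin, which carries thyroxine and the retinol-binding protein, was at 114 and 411 CPM in the knockout, against 273, 283 and 292 CPM in the heterozygous libraries. Replicate 3 was the highest of the 5 libraries and replicate 2 the lowest, and the fitted change was -0.10 ± 0.47 (edgeR adjusted p = 0.91). Without knockout replicate 2 the change was 0.54 (edgeR adjusted p = 0.0422), and without knockout replicate 3 it was -1.30 (edgeR adjusted p = 0.00363), so its direction depends on which knockout library is used. Rbp4, the retinol carrier, was at 137 and 359 CPM in the knockout against 419, 444 and 381 CPM in the heterozygous libraries and did not pass (edgeR adjusted p = 0.224). Apom, which carries sphingosine-1-phosphate on high-density lipoprotein, was at 20.1 and 54.4 CPM in the knockout against 34.1, 39.5 and 35.1 CPM in the heterozygous libraries. It did not pass (0.04 ± 0.38, edgeR adjusted p = 0.96), and its sign turned without knockout replicate 3 (-0.84, edgeR adjusted p = 0.0337). Per CPM of Alb, Ttr stood at 0.0664 and 0.0958 in the knockout, against 0.0250, 0.0240 and 0.0316 in the heterozygous libraries.

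In the IGF axis, the levels parted by gene. Igfals, the acid-labile subunit that holds IGF-I in a long-lived complex, was at 10.4 and 11.7 CPM in the knockout, against 77.2, 78.6 and 69.3 CPM in the heterozygous libraries. This was among the most even of the members, the log2 fold change being -2.77 ± 0.13 (edgeR adjusted p = 0.00163), and it passed in all 5 fits without 1 library. Igf1 itself was at 199 and 218 CPM in the knockout against 258, 266 and 266 CPM in the heterozygous libraries, the log2 fold change being -0.33 ± 0.09 with an edgeR adjusted p of 0.0466. That call did not hold in any fit without 1 library, and with length and GC offsets the value was 0.44 (edgeR adjusted p = 0.0762). Igfbp4, a binding protein that restrains IGFs, was at 362 and 349 CPM in the knockout against 408, 389.9 and 381 CPM in the heterozygous libraries and did not pass (-0.14 ± 0.08, edgeR adjusted p = 0.272).

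Igfbp1, the insulin-suppressed binding protein, was at 10.1 and 27.8 CPM in the knockout, against 27.3, 36.0 and 44.3 CPM in the heterozygous libraries. Replicate 3 stood at the low edge of the heterozygous range and replicate 2 below it, without a call (edgeR adjusted p = 0.198). Igfbp2, at 47.0 and 81.8 CPM in the knockout against 130.2, 147 and 105 CPM in the heterozygous libraries, missed the threshold (-0.99 ± 0.26, edgeR adjusted p = 0.0512). Igf1 made up 2.95% and 1.56% of the member counts in the knockout libraries, against 0.790%, 0.741% and 0.856% in the heterozygous libraries. Igfbp4 made up 5.35% and 2.50% in the knockout, against 1.25%, 1.09% and 1.23% in the heterozygous libraries. Both shares were higher in both knockout libraries, replicate 2 above replicate 3.

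The knockout libraries were not alike for these genes. Replicate 2 was below replicate 3 for 47 of the 48, Igfbp4 being the exception, with a median ratio of replicate 3 to replicate 2 of 2.19. Over all genes tested, replicate 2 was the lower in 50.7%. The 25 hepatocyte enzymes had a median ratio of 1.54. By the ratio, chosen as a description after the values were seen, 6 members were within 1.25-fold: Igfbp4, Igf1, Igfals, Lrg1, Orm2 and Trf. Another 30 lay between 1.53 and 2.6, and 12 were above 2.6, among them Ttr, Apom, Apcs, Rbp4, Igfbp1, Crp and both Saa1 and Saa2. The groups of even ratio thus held both genes far below the heterozygous level (Igfals, at 13.9% and 15.5% of it) and genes near it (Igfbp4, at 92.1% and 88.9%).

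**Figure D3:**
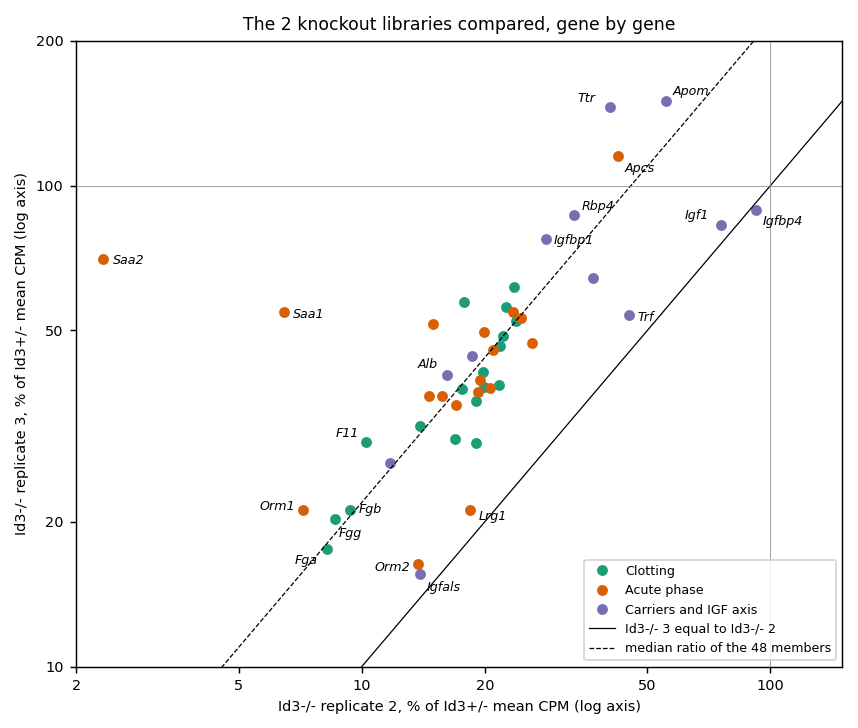
Level of each of the 48 genes in knockout replicate 3 (y) against knockout replicate 2 (x), each as a percentage of the heterozygous mean on log axes, coloured by class. Most points lie near the dashed line, the median ratio of 2.19, while Igfbp4, Igf1, Igfals, Lrg1, Orm2 and Trf lie by the solid line of equal levels.

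The heterozygous libraries were closer to each other. The highest exceeded the lowest by a median of 1.179-fold over the 48 members, from 1.02-fold for Itih4 to 2.28-fold for Saa2. Heterozygous replicate 2 was the highest of its group for 35 members, 17 of the 18 clotting genes among them, and replicate 3 was the lowest for 25. Transcript length went with the fold change only weakly: across the 48 genes Pearson's r was -0.05 and Spearman's rho -0.19, given as a description since all genes come from the same 5 libraries. Median log2 fold changes were -1.41 for the 16 shortest transcripts (609 to 1499 bases), -1.76 for the middle 16 and -1.77 for the 16 longest. Over all genes, the shortest 25% had a median of 0.21 and the longest 25% of -0.33. By GC content, the lowest 25% had a median of -0.45 and the highest 25% of 0.28. Across the 48 members, Pearson's r of the fold change with GC content was 0.07 and Spearman's rho 0.15.

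Several members are neighbours in the genome. Among the protein-coding genes of GENCODE M21, 19 members fell into 7 groups at most 2 places apart. Itih4, Itih3 and Itih1 on chromosome 14 spanned 0.32 on the log2 scale, the fibrinogen genes 0.24, F7 and F10 on chromosome 8 0.15, and Ahsg, Fetub, Hrg and Kng1 on chromosome 16 0.50. Crp and Apcs were the widest, 1.24 apart. No test of these spans was made.

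**Figure D4:**
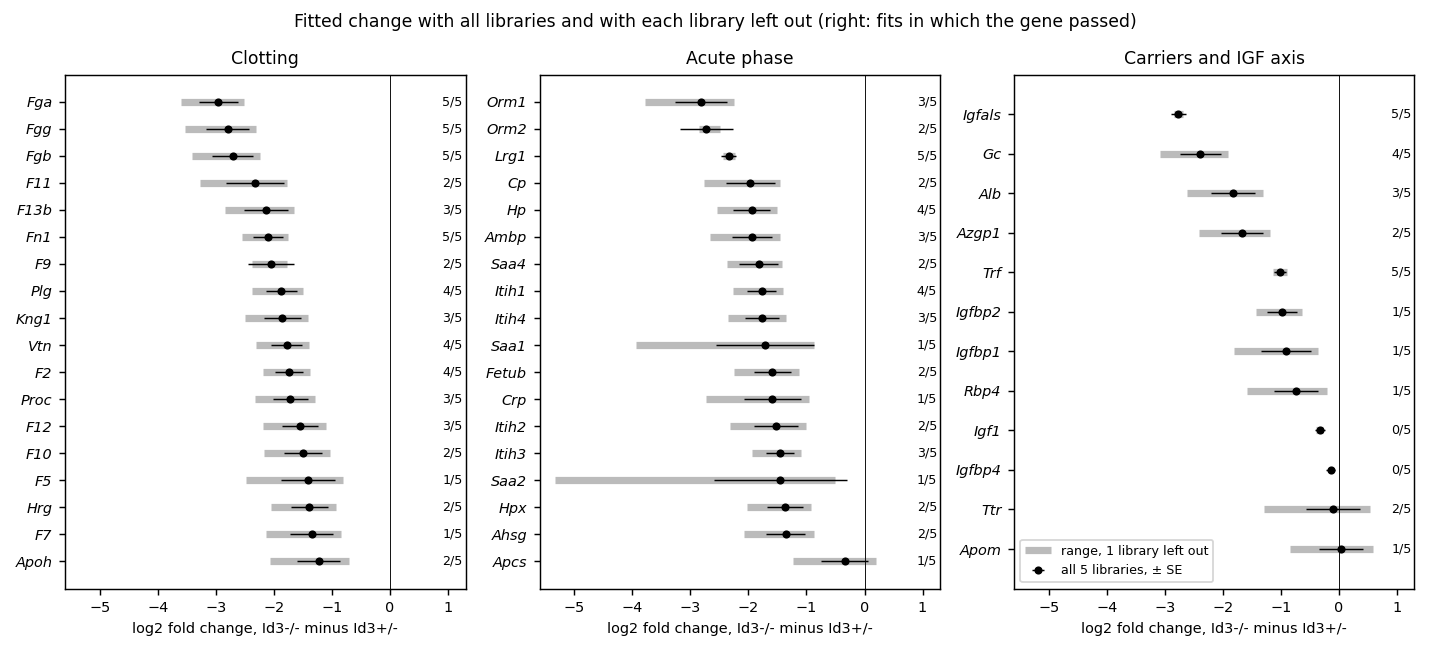
Fitted log2 fold change of each gene, knockout minus heterozygous, with all 5 libraries (point, bar ± SE) and its range over the fits that left out 1 library (grey), with the number of those 5 fits in which the gene passed at the right. Fga, Fgb, Fgg, Fn1, Lrg1, Trf and Igfals passed in all 5, and Ttr, Apom and Apcs have ranges on both sides of 0.

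Other genes of haemostasis did not move as a block. Of 27 in the table, 26 were tested: 1 rose, 7 fell and 18 did not pass, with a median log2 fold change of -0.12. The shares over all genes tested were 6.41% higher and 10.0% lower. The 7 that fell included Proz (protein Z, -1.93 ± 0.28), Cpb2, the fibrinolysis inhibitor (-2.29 ± 0.37), and Habp2, a plasma protease (-1.82 ± 0.29). The others were F2r (-1.47), Lman1 (-1.04), Pros1 (-0.85) and Tfpi (-0.68). Without heterozygous replicate 2 the calls of Proz, Cpb2 and Habp2 were lost, those of Cpb2 and Habp2 also without heterozygous replicate 1. For the others, calls in these fits are not given. Plaur, the urokinase receptor that leukocytes carry, was at 45.5 and 43.1 CPM in the knockout against 16.8, 20.1 and 17.5 CPM in the heterozygous libraries and rose (1.29 ± 0.13, edgeR adjusted p = 0.0061).

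Among 16 genes of acute-phase signalling, 5 rose, 4 fell and 7 did not pass, beside 6.41% higher and 10.0% lower over all genes tested. Il6, the cytokine that drives the response, was at 6.90 and 6.38 CPM in the knockout, against 2.48, 2.78 and 2.70 CPM in the heterozygous libraries (1.32 ± 0.21, edgeR adjusted p = 0.0159). The call for Il6 was lost in 3 of the 5 fits without 1 library: without knockout replicate 2, heterozygous replicate 1 or heterozygous replicate 2. Socs3, the feedback inhibitor that Il6 induces, was at 24.6 and 22.8 CPM in the knockout against 10.2, 10.1 and 9.71 CPM in the heterozygous libraries and rose (1.25 ± 0.13, edgeR adjusted p = 0.00719). Lifr, a receptor of the same cytokine family, fell by 2.62 on the log2 scale. Of the 18 acute-phase proteins 0 rose and 14 fell, while of the 25 hepatocyte enzymes 0 rose and 19 fell. The acute-phase list was not split into proteins that the response raises or lowers. Whether the levels of Il6 and Socs3 bear on these proteins was not tested.

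Of 14 liver-enriched transcription factors, 0 rose, 6 fell and 8 did not pass, with a median log2 fold change of -1.67. For these and for the receptors below, the shares over all genes tested were 6.41% higher and 10.0% lower. Hnf4a was at 8.73 and 15.2 CPM in the knockout against 47.7, 49.2 and 35.7 CPM in the heterozygous libraries (-1.88 ± 0.28), and Ppara, the fatty acid-sensing receptor, changed by -2.25. Both calls were lost without heterozygous replicate 1 or 2. Cebpa, which macrophages also express, was at 126 and 146 CPM in the knockout against 158, 166 and 159 CPM in the heterozygous libraries and did not pass (edgeR adjusted p = 0.143). Of 19 receptors for plasma proteins, 17 were tested: 1 rose, 7 fell and 9 did not pass. Fcgrt, the receptor that spares albumin and IgG from breakdown, was at 1789 and 1534 CPM in the knockout against 1107, 1090.2 and 1226 CPM in the heterozygous libraries and rose (0.54 ± 0.10, edgeR adjusted p = 0.0226), a call that was lost without knockout replicate 2 or heterozygous replicates 1 or 2, and with length and GC offsets. Cd163, the haemoglobin-haptoglobin receptor, fell by 1.05, and Tfr2, the transferrin sensor of hepatocytes, by 1.85 on the log2 scale, the call for Tfr2 being lost without heterozygous replicate 1 or 2.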

How the data were processed

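Poly-A RNA of Kupffer cells was sequenced from 5 samples. The authors deposited raw read counts per gene, and the submitters' processing notes name HTSeq 0.5.4, DESeq 1.18.0, R 3.1.2 and build mm9. Aligner, annotation and strand setting: not given in the sources used here. Of 46983 gene IDs, 46488 matched GENCODE M21 (37902 with the same version), whose build, GRCm38, is newer than mm9. It served for transcript length, GC content, shared 50-base words and gene order. Entries naming no gene, 40.0% to 48.6% of each library, were left out. All 5 samples were fitted together without covariates in edgeR 4.0.16 (R 4.3.3). Low counts were removed by filterByExpr, scaling was by TMM, and genes were compared by the quasi-likelihood test. Benjamini-Hochberg adjustment ran over 16436 genes with a threshold of 0.05, after trials on simulated data. In these trials 31.3% of genes given a log2 change of 1 were recovered, and 61% of those given 2. The false share was 7.72%, so a gene that did not pass may still differ. List sums use CPM on library size. Sums and ratios were given without a test, since 2 samples against 3 cannot reach 0.05 in an exact permutation test. Alternatives were DESeq2 1.42.0, limma-voom (limma 3.58.1), other scalings and filters, a replicate block, each sample left out, robust fitting, a minimum fold, length and GC offsets, and an enzyme-level covariate. Members and lists were chosen with earlier results of these data known. The text names all 48 members and every other haemostasis gene that fell. From the other pathway lists it otherwise names only some of up to 4 passing genes of smallest p and up to 2 others of highest level. The marker genes named, the genes F2r, Lman1, Pros1 and Tfpi, and the promoters of Fgb, Fgg and Igfbp4, were added after values were seen.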

Additional observations from a re-analysis of the deposited data

How the results depend on the processing

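No paired analysis rests on the labels, since the shared replicate numbers are not said to mark a batch. Deviations from the group means correlated at -0.03 and -0.06 in the pairs of the same number. The deviations of the 2 knockout libraries mirror each other, so crossed pairs only reverse these signs. Knockout replicate 3 with heterozygous replicate 2 was at 0.03, and knockout replicate 2 with heterozygous replicate 3 at 0.06. These correlations therefore cannot show whether a batch was shared. With a replicate block, 1 gene passed in all and 0 of each member class (unadjusted p under 0.05 for 3497 genes and 41 members), with Apom at -0.17. All genes passing numbered 4615 with DESeq2, 1267 at a minimum absolute log2 fold change of 1, 1607 with length and GC offsets, and from 335 to 2540 in fits without 1 library. In those fits 4 to 18 clotting, 1 to 18 acute-phase and 2 to 10 carrier genes passed. Scaling moved the split: 1443 higher and 1499 lower with upper-quartile scaling, against 1054 and 1644. Apom also reversed with limma-voom (-0.13), with length and GC offsets (-0.42) and without heterozygous replicate 1 (-0.0025). Without knockout replicate 2, Apcs stood at 0.21, Ttr at 0.54, Fabp1 at 0.35 and Apom at 0.58, and without knockout replicate 3 at -1.23, -1.30, -0.99 and -0.84 in that order, while Igf1 stood at 0.44 with the offsets. With the enzyme level as covariate, 0 genes passed and the log2 fold changes that reversed were F5 1.54, F7 1.04, F10 0.59, F11 0.42, F12 0.44, F13b 0.040, Kng1 0.15, Hrg 0.67, Proc 0.20, Apoh 1.24, Hpx 0.62, Saa1 3.22, Saa2 6.01, Crp 1.58, Apcs 2.18, Cp 0.45, Ahsg 0.83, Fetub 0.47, Itih2 0.88, Itih3 0.12, Itih4 0.087, Ambp 0.28, Alb 0.59, Ttr 3.13, Rbp4 1.77, Azgp1 0.57, Igfbp1 1.58, Igfbp2 0.54, Cebpa 0.16, Cpb2 0.011, Tfr2 0.22, Fabp1 2.27. The enzyme sum does not overlap between the genotypes, so covariate and genotype cannot be told apart. Outside the covariate, replicate block and left-out library fits, 0 to 3 of the 48 members lost their call in a setting and 0 to 5 gained one. Depth limits F9, F11, Orm2, Saa1 and Saa2, which had under 1 CPM in at least 1 library.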
